A study of Mus musculus with 12 samples.

Results

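Claudins are the transmembrane proteins that form the strands of tight junctions, the belts that seal neighbouring epithelial cells to each other. Some claudins tighten the seal against ions, and others, Cldn10 among them, form pores that let selected ions pass between cells. In salivary glands the mix of claudins differs between the secretory end pieces, where primary saliva is made, and the ducts, which modify it. The 9 claudin genes described here are Cldn1, Cldn3, Cldn4, Cldn6, Cldn7, Cldn8, Cldn10, Cldn12 and Cldn23, taken by symbol from the 52636 genes of the count table. Their identifiers in that table are ENSMUSG00000022512 for Cldn1, ENSMUSG00000070473 for Cldn3, ENSMUSG00000047501 for Cldn4, ENSMUSG00000023906 for Cldn6, ENSMUSG00000018569 for Cldn7, ENSMUSG00000050520 for Cldn8, ENSMUSG00000022132 for Cldn10, ENSMUSG00000046798 for Cldn12 and ENSMUSG00000055976 for Cldn23. All 9 passed the filter on low counts that left 15859 genes for testing. Cldn10, which is known from salivary acini and is taken here as the end bud claudin, was set against the other 8.

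RNA came from mouse salivary glands dissected from E13.5 embryos and kept for 2 days on filters at the surface of culture medium. FGFRi glands (3 libraries) were wild type and received 2.5 µM SU5402, an inhibitor of the kinase of FGF receptors, and DMSO glands (3 libraries) were wild type and received the solvent alone. HOM glands (2 libraries) were homozygous for a deletion of Fgfr2b, the epithelial isoform of FGF receptor 2, made by K14Cre, a recombinase under the keratin 14 promoter. HET glands (2 libraries) were labelled heterozygous for that deletion and WT glands (2 libraries) wild type. HET and WT glands were the controls of the cross and, like HOM glands, received no agent. The deletion can reach only cells in which the keratin 14 promoter has been active. Whether HET and WT glands carried the recombinase is not given in the sources used here, and neither is whether the libraries of a group came from separate embryos. P-values therefore measure the spread between these libraries, which may be in part technical. The labels put all 12 libraries in the same batch.

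Library totals ran from 6043701 to 22322182 counts, and a claudin was read with between 23 counts, for Cldn23, and 2836 counts, for Cldn3. Levels are CPM, read counts scaled to a common library size, after TMM scaling, which sets libraries to each other by the bulk of their genes. Read over the whole gene, Fgfr2 was at 73.9 to 80.6 CPM in FGFRi and 90.0 to 99.99 CPM in DMSO. It was at 89.2 and 94.4 CPM in HOM, 86.2 and 99.9 CPM in HET, and 101 and 99.2 CPM in WT. Counts over the whole gene leave the isoform-specific exon unresolved, so they check nothing about the deletion. By Xist and Y-linked genes, all 3 FGFRi libraries, DMSO 1, DMSO 3 and both HOM libraries were female, and DMSO 2 and all HET and WT libraries were male. Markers of the labelled tissue were present: in each of the 5 groups, none of the 13 pan-epithelial, 9 end bud or 12 duct markers was at 0 in every library. In whole glands, fewer epithelial cells and less claudin RNA per cell cannot be told apart.

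The region before a gene's start is where transcription factors such as the Zeb, Snai and Twist repressors of epithelial genes, the ETS factors downstream of FGF receptors and the Grainyhead-like factors of epithelia can act. RefSeq windows from 250 bases before to 50 bases after a start (build GRCm38.p6) were at hand for 7 of the 9 claudins, as 11 windows, and none for Cldn8 and Cldn23. They were searched on both strands for the E-box CACCTG, the ETS motif CCGGAAGT and the Grainyhead motif AACCNGTT. The windows shown are those of Cldn3, Cldn4 and Cldn7, because they differ in response below and hold E-boxes, and both of Cldn10, because its response was the largest to the inhibitor and its windows hold none of the motifs. Capitals mark the matches, and each sequence reads 5′ to 3′ on the strand of its gene.

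Cldn3, chr5:134985964-134986263, plus strand: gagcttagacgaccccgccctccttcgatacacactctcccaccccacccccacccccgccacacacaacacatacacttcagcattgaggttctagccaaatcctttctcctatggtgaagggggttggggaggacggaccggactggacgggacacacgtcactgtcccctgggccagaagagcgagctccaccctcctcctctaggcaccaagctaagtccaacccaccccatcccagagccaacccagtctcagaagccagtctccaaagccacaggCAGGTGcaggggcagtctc
Cldn4, chr5:134946885-134947184, minus strand: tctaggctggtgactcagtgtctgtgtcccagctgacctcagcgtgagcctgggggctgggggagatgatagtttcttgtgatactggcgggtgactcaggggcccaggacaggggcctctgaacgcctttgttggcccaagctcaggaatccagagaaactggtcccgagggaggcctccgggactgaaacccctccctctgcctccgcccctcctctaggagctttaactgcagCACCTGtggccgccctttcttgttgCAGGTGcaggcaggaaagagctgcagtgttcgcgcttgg
Cldn7, the second of its windows, chr11:69965171-69965470, plus strand: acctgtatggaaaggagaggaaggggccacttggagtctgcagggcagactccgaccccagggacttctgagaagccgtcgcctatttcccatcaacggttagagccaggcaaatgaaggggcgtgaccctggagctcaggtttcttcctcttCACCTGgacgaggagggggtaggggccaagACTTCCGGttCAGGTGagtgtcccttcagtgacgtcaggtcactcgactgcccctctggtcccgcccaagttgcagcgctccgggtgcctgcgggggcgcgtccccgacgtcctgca
Cldn10, the first of its windows, chr14:118787621-118787920, plus strand: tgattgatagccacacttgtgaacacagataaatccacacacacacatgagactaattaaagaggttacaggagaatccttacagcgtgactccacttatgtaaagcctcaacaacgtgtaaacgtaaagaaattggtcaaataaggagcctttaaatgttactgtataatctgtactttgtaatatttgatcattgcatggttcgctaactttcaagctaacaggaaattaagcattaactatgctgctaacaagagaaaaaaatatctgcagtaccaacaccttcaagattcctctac
Cldn10, the second of its windows, chr14:118854700-118854999, plus strand: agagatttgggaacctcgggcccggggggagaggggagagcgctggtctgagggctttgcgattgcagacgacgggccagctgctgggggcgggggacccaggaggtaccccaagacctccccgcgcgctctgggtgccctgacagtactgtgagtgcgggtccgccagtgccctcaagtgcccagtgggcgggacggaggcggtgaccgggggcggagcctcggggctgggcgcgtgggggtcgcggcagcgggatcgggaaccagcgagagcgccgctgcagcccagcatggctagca

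The E-box of Cldn3 began 31 bases after the start. Those of Cldn4 began at -14 and 11, and those of this Cldn7 window at -97 and -57, with the ETS motif at -67 between them, counted from the start as 0. No match overlapped another. The window of Cldn6 also held 2 E-boxes, at -93 and 40, so that 4 of the 7 claudins had one in some window, against 22.6% of 27025 genes with a RefSeq window. The ETS motif was in 1 of the 7 claudins and in 4.31% of genes, and the Grainyhead motif in 0 of the 7 and in 2.35% of genes. No motif was found in the windows of Cldn1, Cldn12 or Cldn10. The Cldn10 windows were unlike each other in base composition, with 36.0% G and C in the first and 72.0% in the second. RefSeq lists Cldn10a and Cldn10b among the names of Cldn10, isoforms that are known to start at different exons, and the counts per gene do not separate them. Cldn3 and Cldn4 are next to each other on chromosome 5 in the RefSeq annotation.

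Of these genes, Cldn3, Cldn4 and Cldn7, known as barrier-forming claudins, were read at the highest levels for their length. Per kilobase of exon, Cldn3 stood at 61.6 ± 14.5 CPM (SD) in FGFRi and 102 ± 17.6 CPM in DMSO, with 3 libraries each, and at 60.6 ± 6.16 in HOM, 83.8 ± 8.30 in HET and 93.9 ± 2.19 in WT (SD, n = 2 each). The order Cldn3, Cldn4, Cldn7 held at the top in the mean of all 5 groups. Cldn10 was the fourth in DMSO, HOM, HET and WT. In FGFRi it was the fifth, at 11.1 ± 4.0 CPM per kilobase, behind Cldn8 at 19.4 ± 0.661. Cldn23 was the lowest in each group, at 1.70 to 3.51 CPM per kilobase in the group means. On the plain CPM scale, DMSO had the highest group mean for 8 of the 9 claudins, and WT for Cldn12. The lowest group mean was that of HOM for Cldn1, Cldn3, Cldn4, Cldn8 and Cldn23, that of FGFRi for Cldn7 and Cldn10, and that of HET for Cldn6 and Cldn12. For Cldn10 the group means ran in the order DMSO, HET, WT, HOM and FGFRi, in which HET overlapped WT and HOM overlapped FGFRi. For Cldn12 the order was WT, DMSO, HOM, FGFRi and HET, and each group overlapped the next.

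**Figure D1:**
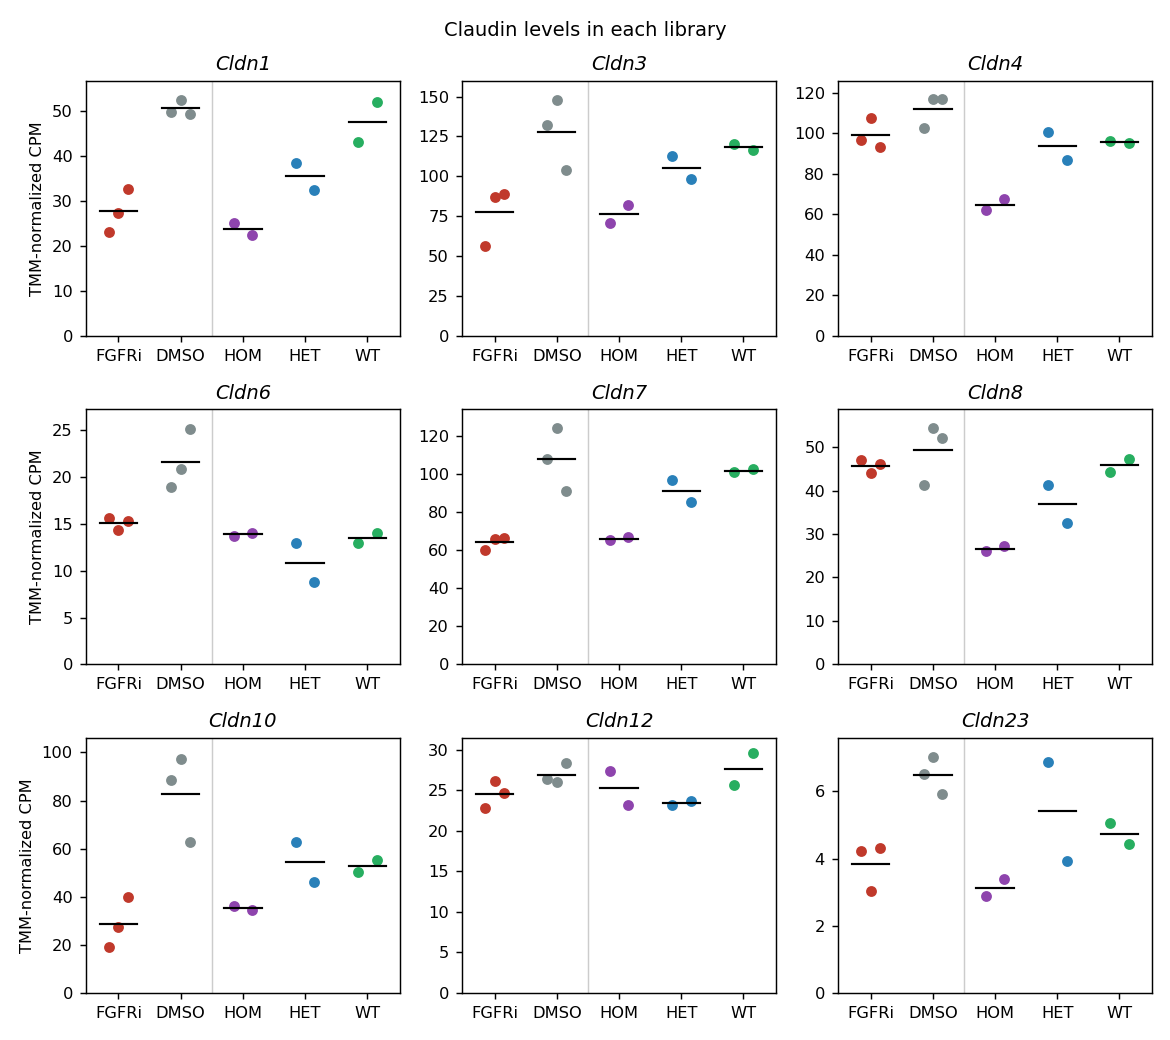
Level of each claudin in every library, in TMM-normalized CPM, with 1 point per library and a bar at the group mean; the grey line parts the inhibitor experiment from the deletion cross. The 3 FGFRi points of Cldn10 lie at 19.3 to 39.8 CPM, below the 3 DMSO points at 62.9 to 97.1 CPM, and the HOM points of Cldn4 lie at 62.1 and 67.6 CPM, below all 4 HET and WT points.

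The first comparison asks what SU5402 does to gene expression in the gland. Its action on kinases other than those of FGF receptors was not measured here. Cldn10 showed the largest fall of the 9, to about 0.36 times its DMSO level, and Cldn1, Cldn3, Cldn6, Cldn7 and Cldn23 fell with it. Cldn4, Cldn8 and Cldn12 did not pass the test. Thus 6 of 9 claudins fell and 0 rose at an adjusted p under 0.05, where 10.7% of all genes tested fell, 9.73% rose and 20.5% did either. The median log2 change was -0.71 over the claudins and -0.02 over all genes tested. For the same 6 claudins every FGFRi library lay below every DMSO library, which was the case for 20.5% of all genes.

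Cldn10 was read at 19.3, 27.3 and 39.8 CPM in FGFRi 1 to 3, against 88.7, 97.1 and 62.9 CPM in DMSO 1 to 3. The groups did not overlap, and each was wide, with FGFRi 3 the highest of its group and DMSO 3 the lowest of its own. The log2 change was -1.48 ± 0.20 (SE, adjusted p = 1.68e-04), a fold of 0.360, with a 95% interval from -1.90 to -1.05. The summed end bud markers moved alongside, at 469, 618 and 935 CPM in FGFRi 1 to 3 and 1334, 1671 and 971 CPM in DMSO 1 to 3, and their part in the Cldn10 result was not tested. Of the 9 end bud markers, 7 fell and 0 rose, where 10.7% of all genes tested fell and 9.73% rose. The 12 duct markers, with 4 higher and 4 lower, summed to 2783 to 3543 CPM in FGFRi and 2581 to 3309.7 CPM in DMSO. The 10 basal cell markers, with 5 higher and 0 lower, summed to 804 to 1159 CPM in FGFRi and 623 to 1075 CPM in DMSO. Of the 13 stratified-epithelium markers tested, 0 were called.

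Cldn1, a claudin needed for the skin barrier, was at 23.1, 27.4 and 32.8 CPM in FGFRi and at 49.8, 52.4 and 49.4 CPM in DMSO. The 3 DMSO libraries lay close together and well above the FGFRi ones, and the log2 change was -0.84 ± 0.12 (SE, adjusted p = 2.55e-04). Cldn7, which binds the adhesion protein Epcam and also sits along the lateral membrane, was at 60.2, 65.9 and 66.3 CPM in FGFRi and at 108, 124 and 91.3 CPM in DMSO. Here the FGFRi libraries were the tight group, and the log2 change was -0.75 ± 0.10 (adjusted p = 1.14e-04). Cldn3 was at 56.5, 87.4 and 88.9 CPM in FGFRi and at 132, 148 and 104 CPM in DMSO, a log2 change of -0.71 ± 0.15 (adjusted p = 0.00347). FGFRi 1 was the lowest for Cldn3, as it was for Cldn10, Cldn1 and Cldn7. Cldn10, Cldn1, Cldn7 and Cldn3 kept their call without any 1 library of the 2 groups.

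Cldn6, a claudin of embryonic epithelia, was at 15.6, 14.4 and 15.3 CPM in FGFRi and at 18.9, 20.9 and 25.1 CPM in DMSO, with a log2 change of -0.52 ± 0.14 (SE, adjusted p = 0.0159). Its call was lost without FGFRi 1, FGFRi 2 or DMSO 3, with adjusted p up to 0.0740, and with library totals in place of TMM (adjusted p = 0.155). Cldn23, the least abundant of the 9, was at 4.22, 3.02 and 4.32 CPM in FGFRi and at 6.53, 7.02 and 5.91 CPM in DMSO. Its log2 change of -0.76 ± 0.24 (adjusted p = 0.0331) lost its call without FGFRi 1, FGFRi 2, DMSO 1 or DMSO 2, with adjusted p up to 0.147, and by DESeq2 (adjusted p = 0.0635), with sex as a covariate (0.120) or with library totals (0.108).

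The other 3 claudins did not pass. Cldn4, a barrier claudin that is known as a receptor of Clostridium enterotoxin as Cldn3 is, was at 96.5, 108 and 93.2 CPM in FGFRi and at 103, 117 and 117 CPM in DMSO. The groups overlapped, and the log2 change was -0.18 ± 0.08 (SE, adjusted p = 0.139), with a 95% interval from -0.36 to -0.01. Cldn8, known for the cation barrier of kidney collecting ducts, was at 47.0, 43.9 and 46.1 CPM in FGFRi and at 41.4, 54.4 and 52.0 CPM in DMSO. Its interval ran from -0.35 to 0.11 around a log2 change of -0.12 ± 0.11 (adjusted p = 0.477). Cldn12, which lacks the tail motif by which most claudins bind the scaffolds of the junction, was at 22.8, 26.1 and 24.6 CPM in FGFRi and at 26.4, 26.0 and 28.4 CPM in DMSO. Its log2 change was -0.12 ± 0.10, with an interval from -0.34 to 0.09 (adjusted p = 0.428).

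Other RNA in these glands moved as well, where 10.7% of all genes tested fell and 9.73% rose. The 13 pan-epithelial markers summed to 1564 to 1758 CPM in FGFRi and 2095 to 2350 CPM in DMSO, and all 13 fell, with a median log2 change of -0.39. The 14 mesenchymal markers summed to 3646 to 5133 CPM in FGFRi and 2244 to 2332 CPM in DMSO, with 13 higher and 0 lower. The skeletal muscle markers summed to 169 to 731 CPM in FGFRi and 28.2 to 83.2 CPM in DMSO, with all 7 tested higher. The 6 glial markers summed to 27.7 to 32.7 CPM in FGFRi and 8.90 to 15.6 CPM in DMSO, with 4 higher. The part of these cell types in the claudin results was not tested. The summed claudins per summed pan-epithelial marker came to 0.230 ± 0.009 (SD) in the 3 FGFRi libraries and 0.259 ± 0.015 in the 3 DMSO libraries, without overlap. Scaled to the pan-epithelial markers, Cldn10 (log2 change -1.06, adjusted p = 4.25e-04), Cldn1 (-0.42) and Cldn7 (-0.32) were still lower, and Cldn3, Cldn6 and Cldn23 were no longer called. Under that scaling Cldn4, Cldn8 and Cldn12 turned to called rises of 0.24, 0.31 and 0.30. It moves the median of all genes to 0.41, with 7956 genes higher and 187 lower, so that these rises were smaller than that shift.

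**Figure D2:**
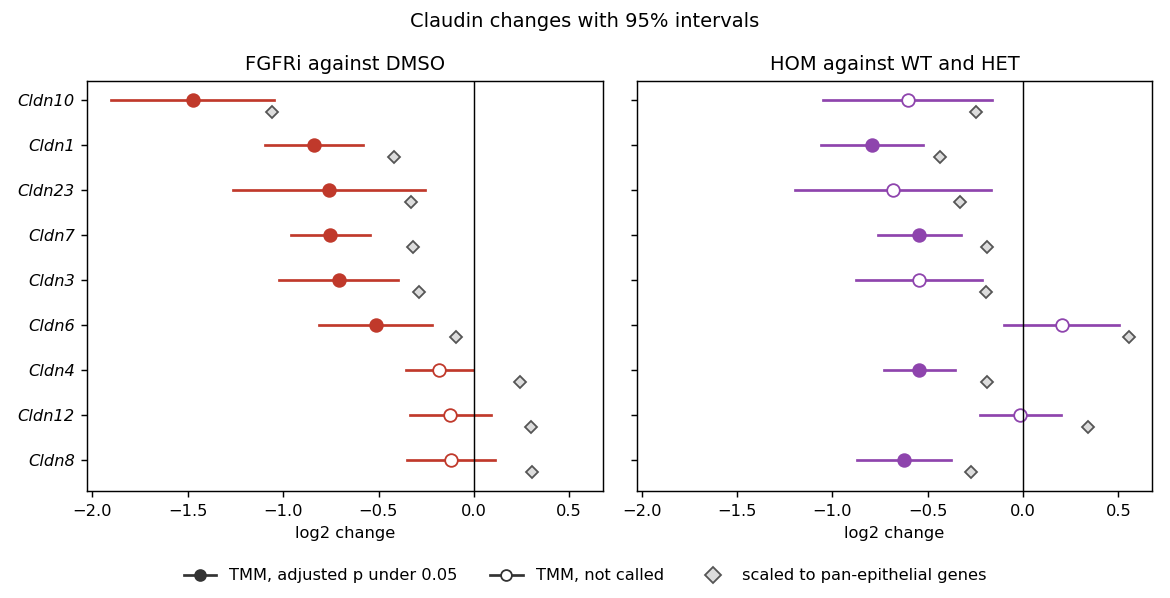
Log2 change of each claudin with its 95% interval, for FGFRi against DMSO on the left and HOM against WT and HET on the right; filled circles passed an adjusted p under 0.05, open circles did not, and diamonds give the change after scaling to pan-epithelial markers. Cldn10 lies farthest to the left under FGFRi at -1.48 and still at -1.06 with the epithelial scaling, and Cldn6 is the only claudin to the right of 0 in HOM under TMM.

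A ratio of 2 genes within a library is free of scaling between libraries. The log2 ratio of Cldn10 to Cldn8 was -1.28, -0.68 and -0.21 in FGFRi 1 to 3, against 1.10, 0.83 and 0.27 in DMSO 1 to 3, so that Cldn8 had more reads than Cldn10 in every FGFRi library and fewer in every DMSO library. The mean was -0.73 ± 0.54 (SD) in FGFRi, against 0.73 ± 0.42 in DMSO, a difference of -1.46. Against Cldn12 the difference was -1.42, and against Cldn4 it was -1.38. Against Cldn1, Cldn3, Cldn7 and Cldn23, which fell themselves, it was smaller, at -0.68, -0.83, -0.82 and -0.80. For these 7 ratios FGFRi and DMSO did not overlap, each with a two-sided exact permutation p of 0.1, the smallest that 3 against 3 libraries allows (0.114 adjusted over the 8 ratios). All 8 ratios share the Cldn10 counts, so they are no independent evidence for each other. How often ratios of other genes do not overlap was not determined. The ratio to Cldn6 differed by -1.05 with overlap (exact permutation p = 0.2). Put as a share of the 9 claudins' CPM per kilobase, Cldn10 made up 4.18% to 7.16% in FGFRi and 8.83% to 11.4% in DMSO. Cldn4 made up 23.9% to 29.9% in FGFRi and 18.9% to 23.4% in DMSO, and Cldn8 8.73% to 11.2% in FGFRi and 5.86% to 8.04% in DMSO.

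**Figure D3:**
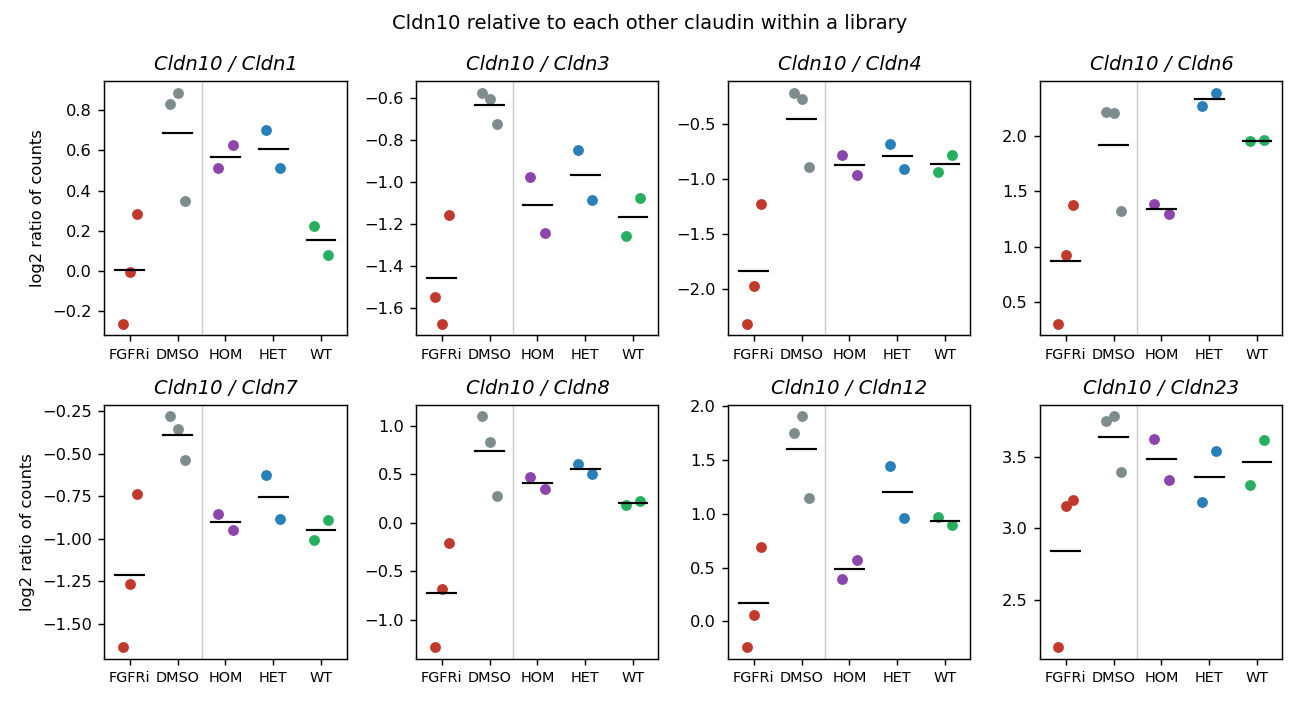
Log2 ratio of Cldn10 counts to those of each other claudin, 1 panel per claudin, with 1 point per library and a bar at the group mean; the axes have their own ranges. FGFRi lies below DMSO without overlap in all panels but that of Cldn6, and HOM lies below HET and WT without overlap for Cldn6 and Cldn12 alone.

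The second comparison sets HOM glands against WT and HET glands of the same cross and asks about the deletion in place of the drug. Cldn1, Cldn4, Cldn7 and Cldn8 fell, and no claudin rose. Thus 4 of 9 claudins fell, where 2.44% of all genes tested fell, 3.44% rose and 5.88% did either. The median log2 change was -0.55 over the claudins and 0.0006 over all genes. Both HOM libraries lay below all 4 controls for 7 claudins, the 4 that fell and Cldn3, Cldn10 and Cldn23, which was the case for 12.2% of all genes. The pair of HOM libraries is female and the 4 controls are male, so genotype and sex cannot be told apart here. With a covariate for sex, which rests on the contrast of DMSO 2 with DMSO 1 and DMSO 3, 0 of the 9 claudins and 46 genes in all were called, and with library totals in place of TMM 0 claudins were (adjusted p from 0.0951 for Cldn1 up). In the fit with sex the log2 changes were -0.71 for Cldn1, -0.45 for Cldn4 and -0.40 for Cldn8, with larger SEs of 0.22, 0.16 and 0.19, and those of Cldn7, Cldn3 and Cldn10 moved closer to 0, at -0.22, -0.23 and -0.25.

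Cldn4, which had not passed with the inhibitor, was at 62.1 and 67.6 CPM in HOM, against 101 and 86.7 CPM in HET and 96.1 and 95.1 CPM in WT. The HOM libraries were well clear of the 4 controls, and the log2 change was -0.54 ± 0.09 (SE, adjusted p = 0.00218), a call kept without any 1 library. Cldn8 was at 26.0 and 27.2 CPM in HOM, against 41.3 and 32.6 CPM in HET and 44.3 and 47.2 CPM in WT. Its log2 change was -0.62 ± 0.12 (adjusted p = 0.00516), and HET 2 was the control nearest to HOM. Cldn1 was at 25.2 and 22.4 CPM in HOM, against 38.5 and 32.4 CPM in HET and 43.1 and 52.1 CPM in WT, a log2 change of -0.79 ± 0.13 (adjusted p = 0.00199). The HET libraries of Cldn1 lay between those of HOM and WT. Cldn7 was at 65.3 and 66.7 CPM in HOM, against 97.0 and 85.3 CPM in HET and 101 and 102 CPM in WT, a log2 change of -0.54 ± 0.10 (adjusted p = 0.00562). The call of Cldn1 was lost without HOM 2 (adjusted p = 0.0879), and those of Cldn7 and Cldn8 without HOM 1 or HOM 2 (up to 0.0945 and 0.0859).

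Cldn3 was at 70.8 and 81.8 CPM in HOM, against 113 and 98.1 CPM in HET and 120.2 and 116 CPM in WT. With a log2 change of -0.55 ± 0.15 (SE) and an adjusted p of 0.0502 it lay at the threshold, and it passed with DESeq2 size factors (adjusted p = 0.0457) and in a fit of the HOM, HET and WT libraries alone (adjusted p = 0.00180). Cldn10 was at 36.0 and 34.5 CPM in HOM, against 62.8 and 46.2 CPM in HET and 50.2 and 55.1 CPM in WT. The groups did not overlap, and the log2 change of -0.60 ± 0.21 did not pass (adjusted p = 0.107, 95% interval from -1.05 to -0.16), while the fit of those 3 groups alone called it (adjusted p = 0.00386). Cldn23, at 2.88 and 3.39 CPM in HOM, 6.89 and 3.94 CPM in HET and 5.05 and 4.43 CPM in WT, differed by -0.68 ± 0.24 (adjusted p = 0.118). Cldn6 and Cldn12 were the 2 whose groups overlapped. Cldn6 was at 13.8 and 14.1 CPM in HOM, 12.9 and 8.76 CPM in HET and 12.96 and 14.1 CPM in WT, a log2 change of 0.20 ± 0.14 (adjusted p = 0.489). Cldn12 was at 27.4 and 23.2 CPM in HOM, 23.2 and 23.7 CPM in HET and 25.6 and 29.6 CPM in WT, a log2 change of -0.01 ± 0.10 (adjusted p = 0.963).

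Within libraries, the ratios of Cldn10 to the other claudins were close in HOM and controls for most of them. The log2 ratio of Cldn10 to Cldn4 was -0.79 and -0.97 in HOM, against -0.68 and -0.91 in HET and -0.94 and -0.79 in WT. The differences were -0.04 for Cldn3, -0.05 for Cldn4, -0.05 for Cldn7, 0.03 for Cldn8, 0.07 for Cldn23 and 0.19 for Cldn1, each with overlap. Against Cldn6 the difference was -0.81 and against Cldn12 it was -0.58, both without overlap, with exact permutation p = 0.0667, the smallest that 2 against 4 libraries allows (0.267 adjusted over the 8 ratios). The share of Cldn10 in the claudins' CPM per kilobase was 7.35% to 8.17% in HOM, 8.09% to 9.27% in HET and 7.35% to 7.97% in WT.

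Alongside, the 9 end bud markers summed to 649 to 672 CPM in HOM, 1084 to 1287 CPM in HET and 936 to 969 CPM in WT. HOM and the controls did not overlap, and 4 of the markers fell and 0 rose. Of all genes tested, 2.44% fell and 3.44% rose in this comparison. The pan-epithelial markers summed to 1600.4 and 1697 CPM in HOM, 2036 and 1932 CPM in HET and 2192 and 2293 CPM in WT, and 6 of 13 fell. The 12 duct markers summed to 1637 and 1641 CPM in HOM, 2476 and 2313 CPM in HET and 2622 and 2616 CPM in WT, with 7 lower and 0 higher. The 10 basal cell markers summed to 549 and 602 CPM in HOM, 663 and 849 CPM in HET and 859 and 626 CPM in WT. Of them 3 were lower and 1 higher. Stratified-epithelium markers summed to 97.3 and 146 CPM in HOM, 307 and 497 CPM in HET and 735 and 139 CPM in WT. Of the 13 tested, 3 were lower and 0 higher. The mesenchymal markers summed to 3875 to 4058 CPM in HOM, 3523 to 3850 CPM in HET and 2426 to 2535 CPM in WT, with 8 of 14 higher in HOM. The muscle markers summed to 188 and 205 CPM in HOM, 97.2 to 190.2 CPM in HET and 15.3 to 19.0 CPM in WT, with 4 of 7 higher. The glial markers summed to 35.7 to 36.0 CPM in HOM, 21.1 to 21.6 CPM in HET and 19.0 to 21.3 CPM in WT, with 2 of 6 higher. In HOM against HET alone, 0 of the mesenchymal, muscle or glial markers were called, where 1.49% of all genes were. In HET against WT, 5 of the 14 mesenchymal, 2 of the 7 muscle and 0 of the 6 glial markers were higher, where 0.851% of all genes were. The part of all these cell types in the claudin results was not tested. The summed claudins per summed pan-epithelial marker came to 0.203 ± 0.003 in HOM, 0.230 ± 0.019 in HET and 0.226 ± 0.002 in WT (SD, n = 2 each). Scaled to the pan-epithelial markers, which moves the median of all genes to 0.35, Cldn1 was lower by -0.43 (adjusted p = 0.0125), Cldn4, Cldn7 and Cldn8 were no longer called at -0.19, -0.19 and -0.27, and Cldn6 and Cldn12 were called higher at 0.56 and 0.34. Of all genes, 6547 were higher and 106 lower under that scaling.

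Against each control alone the falls were unequal in size. Against WT, 5 claudins fell in HOM and 0 rose, where 3.06% of all genes fell, 4.5% rose and 7.56% did either: Cldn1 by 1.00, Cldn8 by 0.78, Cldn3 by 0.63, Cldn7 by 0.62 and Cldn4 by 0.56 on the log2 scale. The fall of Cldn3 was not called without any 1 of the 4 HOM and WT libraries, and that of Cldn4 without WT 1 (adjusted p = 0.0509). Below both WT libraries lay 7 claudins in both HOM libraries, against 26.3% of all genes. Against HET, 1 claudin fell, where 0.876% of all genes fell and 1.49% passed in either direction. It was Cldn4, by 0.53 ± 0.10 (SE, adjusted p = 0.0140), and Cldn1, Cldn7 and Cldn8 differed by -0.58, -0.47 and -0.47 (adjusted p = 0.0573, 0.0606 and 0.101). Scaled to the pan-epithelial markers, Cldn1 (-0.56, adjusted p = 0.00642) was the 1 claudin lower than in WT and 0 were lower than in HET, while Cldn6 was called higher than in WT (0.49, adjusted p = 0.0457) and than in HET (0.62, adjusted p = 0.0493). The Cldn4 call against HET was lost without HOM 1, HOM 2 or HET 1 (adjusted p up to 0.155). Both HOM libraries lay below both HET libraries for 7 claudins, against 20.6% of all genes, and above them for Cldn6 (log2 change 0.36 ± 0.17, adjusted p = 0.397), which ran from 0.10 without HET 2 to 0.67 without HET 1. Between HET and WT, 0 claudins were called by edgeR and 0 by DESeq2, where by edgeR 0.372% of all genes were lower, 0.851% higher and 1.22% either. At an unadjusted p under 0.05, 2 claudins were lower in HET, Cldn1 by 0.42 ± 0.14 (adjusted p = 0.197) and Cldn8 by 0.31 ± 0.13 (adjusted p = 0.315). By that threshold 2144 of all 15859 genes tested passed in either direction. For 6 claudins both HET libraries lay below both WT libraries, against 22.1% of all genes. Cldn8 ran from -0.50 without HET 1 to -0.15 without HET 2. These comparisons share libraries and are no independent evidence for each other.

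The groups with neither inhibitor nor deletion, DMSO and WT, belong to the inhibitor experiment and to the deletion cross, and were set against each other as a background. Cldn6 was higher in DMSO by 0.68 ± 0.15 (SE, adjusted p = 0.0317), with 3 DMSO libraries above both WT libraries, and was the 1 claudin called, where 1.27% of all genes were higher, 0.984% lower and 2.26% either. Cldn10 differed by 0.67 ± 0.22 (adjusted p = 0.147) and Cldn4 by 0.23 ± 0.09 (adjusted p = 0.250), each also without overlap. With Cldn23, 4 claudins lay above WT in every DMSO library and 0 below, against 15.3% and 15% of all genes. Sex differed as well, with DMSO 1 and DMSO 3 female and DMSO 2 and both WT libraries male. With sex as a covariate 0 claudins were called. The Cldn6 call was lost without DMSO 2, DMSO 3, WT 1 or WT 2 (adjusted p up to 0.334).

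Whether a claudin answered the inhibitor and the deletion unequally was tested as the FGFRi change minus the HOM change. By edgeR 0 of 9 claudins passed, where 2.77% of all genes did, 1.36% above 0 and 1.41% below, and by DESeq2 0 passed as well. At an unadjusted p under 0.05 there were 4, against 2629 of all 15859 genes tested. For Cldn10 the difference was -0.87 ± 0.28 (SE, adjusted p = 0.122), on the side of the larger fall with the inhibitor. For Cldn6 it was -0.72 ± 0.20 (adjusted p = 0.0678). For Cldn8 and Cldn4 it was 0.50 ± 0.16 (adjusted p = 0.106) and 0.36 ± 0.12 (adjusted p = 0.130), on the side of the larger fall in HOM. Without a filter on low counts, Cldn10 (adjusted p = 6.20e-07) and Cldn6 (adjusted p = 0.0111) passed. Cldn10 passed without FGFRi 3 (adjusted p = 0.0165), and Cldn6 without HET 1 (adjusted p = 0.0201). For Cldn1 the difference was close to 0 at -0.05 ± 0.17, with a 95% interval from -0.41 to 0.32, which leaves room for unequal changes of that size.

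Over all 12 libraries, 2 pairs of claudins were each other's nearest pattern. The likeness is the mean absolute difference between the log2 CPM of 2 genes, each centred on its own mean over the libraries, so that 0 is an identical pattern; it is a description, since the libraries share groups. Cldn3 and Cldn7 were the closest pair at 0.091, and Cldn4 and Cldn8 the second at 0.116. Cldn1 was nearest to Cldn3 at 0.153, and Cldn23 to Cldn4 at 0.192. Cldn10 was the farthest from the rest, with a mean of 0.373 to the other 8, and Cldn6 followed at 0.348. The nearest claudin to Cldn10 was Cldn3 at 0.263, and the farthest was Cldn6 at 0.527. Cldn3 and Cldn4, which are neighbours on chromosome 5, differed by 0.262.

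**Figure D4:**
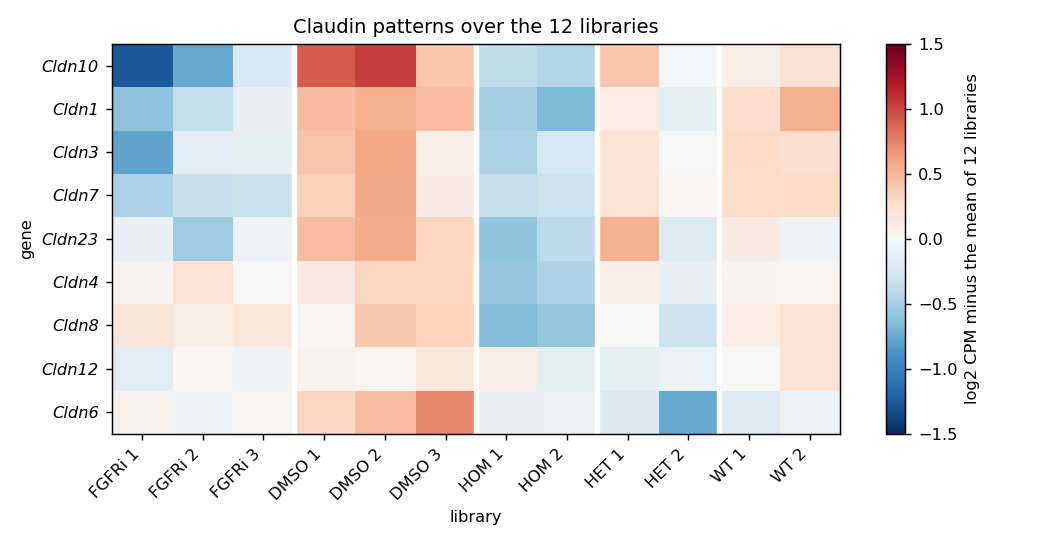
Log2 CPM of each claudin minus its mean over the 12 libraries, with genes in rows, libraries in columns and white lines between groups; red is above and blue below the gene's own mean. Cldn10 has the widest range, from blue in FGFRi to red in DMSO; Cldn4 and Cldn8 are low in HOM and near their mean in FGFRi, whereas Cldn3 and Cldn7 are low in both.

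Among 10366 genes with a mean of at least 5 CPM, the 5 with the pattern most like that of Cldn10 were Etv1 at 0.189, Liph and Asns at 0.190, Ano1 at 0.200 and Pip5k1b at 0.209. Etv1 is an ETS transcription factor induced by FGF signalling, Asns makes asparagine, and Ano1 is the calcium-gated chloride channel of salivary acini. Liph is a phospholipase and Pip5k1b a lipid kinase. Over the 5 group means in place of the 12 libraries, Etv1 and Asns were again the nearest. For Cldn1 the nearest were Krt8, a keratin of simple epithelia, at 0.111, Gk and Gdpd1. For Cldn3 they were the tetraspanin gene Tspan1, Pik3ap1 and Cldn7, and for Cldn7 they were Dhrs7, the protease inhibitor gene Spint2 and Cldn3. For Cldn4 they were Taldo1, Gpd1l and Spcs3, and for Cldn8 they were Thbs1, the secreted protein thrombospondin, at 0.081, Exph5 and Rnf128. For Cldn23 they were Krt8, Lars and Krt18, and for Cldn6 they were Ccdc58, Frrs1 and Rfk.

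The RNA of proteins that claudins work with moved in part alike. Of 26 tight-junction partners, a list of scaffolds, adhesion molecules and polarity proteins, 12 fell, 4 rose and 10 did not pass with the inhibitor. Their median log2 change was -0.28. Of all genes tested, 10.7% fell and 9.73% rose. Among the partners smallest in p, Cgnl1 fell by 0.94 and Cgn by 0.62, both cingulin scaffolds that link junctions to actomyosin. Marveld2, the tricellular junction protein tricellulin, fell by 0.78. In HOM 7 partners fell, 1 rose and 18 did not pass (median -0.22), where 2.44% of all genes fell and 3.44% rose. Among the partners smallest in p there, Ocln, the strand protein occludin, fell by 0.66, Cgn fell by 0.52 and Marveld2 fell by 0.56. Under the pan-epithelial scaling the same list gave 3 lower and 9 higher with the inhibitor, and 1 lower and 6 higher in HOM. Of all 15859 genes tested, 187 were lower and 7956 higher with the inhibitor, and 106 were lower and 6547 higher in HOM. The part that was higher was thus smaller in the list than over all genes.

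Of 17 transcription factors known to act on claudin or other epithelial genes, 7 rose, 4 fell and 6 did not pass with the inhibitor. Of all genes tested, 9.73% rose and 10.7% fell. The 4 smallest in p all rose. They were Zeb2, by 1.56 ± 0.12, Zeb1, by 1.16 ± 0.13, Twist1, by 1.40 ± 0.19, and Snai1, by 1.34 ± 0.21 (SE), which are known as repressors of epithelial genes and bind E-boxes. In HOM 4 rose, 4 fell and 9 did not pass, where 3.44% of all genes rose and 2.44% fell. The 4 smallest in p were Zeb2, by 0.87 ± 0.11, and Zeb1, by 0.79 ± 0.12, both higher, and Ehf, an epithelial ETS factor, and Grhl1, a Grainyhead-like factor, lower by 0.61 ± 0.08 and 0.51 ± 0.10. Zeb1, Zeb2, Twist1 and Snai1 are also expressed by mesenchyme, whose markers rose in both comparisons as given above. Against HET alone, 0 of the 14 mesenchymal markers were called in HOM, where 1.49% of all genes were. Bulk RNA does not show in which cells these factors rose. Scaled to the pan-epithelial markers, 11 of the 17 rose and 0 fell with the inhibitor, and in HOM 5 rose and 1 fell. That scaling gave 7956 of all 15859 genes higher with the inhibitor and 6547 in HOM. The part that rose was thus larger in the list than over all genes with the inhibitor, and smaller in HOM. With the inhibitor, the claudins with an E-box in a window were Cldn3, Cldn6 and Cldn7, which fell, and Cldn4, which did not pass. Of those with none, Cldn10 and Cldn1 fell and Cldn12 did not pass. In HOM against WT and HET, Cldn4 and Cldn7 had an E-box and fell, and Cldn3 and Cldn6 had one and did not pass. Cldn1 had none and fell, and Cldn10 and Cldn12 had none and did not pass. The part of these motifs in the changes was not tested.

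The count table held 24 other claudins, of which 3 passed the filter. Cldn5, the claudin of blood vessels, had 0 counts in each of the 3 FGFRi libraries and 11 counts over the 3 DMSO libraries, at 0.318, 0.364 and 0.328 CPM. The DMSO mean of 0.337 CPM was 3.68-fold above a floor of 3 counts over the FGFRi group. That fold leaves out the counting error of the 11 DMSO counts, so it is no firm lower bound. Cldn5 was at 0.880 and 1.70 CPM in HOM, 0.681 and 1.69 CPM in HET and 0.366 and 0.648 CPM in WT. The 7 endothelial markers summed to 6.75 to 9.83 CPM in FGFRi and 4.62 to 7.55 CPM in DMSO. Of them 1 was higher and 0 lower, against 9.73% and 10.7% of all genes tested. Called or not, the log2 change was negative for 4 of the 7 markers and positive for 3, with a median of -0.37. Their part in the Cldn5 result was not tested. Cldn34c1, on the X chromosome, whose copies could share reads, was called higher with the inhibitor. It was at 4.22, 3.13 and 2.38 CPM in FGFRi and 0.478, 0.936 and 0.985 CPM in DMSO, a log2 change of 1.89 ± 0.41 (SE, adjusted p = 0.00464). It was at 3.12 and 1.74 CPM in HOM, 0.833 and 1.045 CPM in HET and 1.68 and 2.92 CPM in WT, so that DMSO lay below WT as well (log2 change -1.43 ± 0.45, adjusted p = 0.134). Cldn2, a pore-forming claudin, was at 0.367, 1.30 and 1.16 CPM in FGFRi and 2.23, 2.50 and 1.15 CPM in DMSO, which did not pass (log2 change -0.99 ± 0.42, adjusted p = 0.109). An antisense gene that overlaps exons of Cldn3, Wbscr25, had 39 counts over all 12 libraries.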

How the data were processed

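The count table holds raw counts of reads per gene, as deposited by the authors without normalization. Per the submitters' processing notes, bcl2fastq, STAR and the build GRCm39 were used, with no versions. Per the labels' protocols, ribosomal RNA was removed from total RNA before NEBNext Ultra II library preparation. How reads were counted, and whether by strand, is not given in the sources used here. Symbols and exon lengths came from GENCODE M21, in which 52403 of 52636 identifiers matched, and promoter windows from RefSeq on GRCm38.p6. No other gene coordinates are printed because the counts use another build.

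Genes were tested in R 4.3.3 with the quasi-likelihood F test of edgeR 4.0.16, with TMM scaling and filterByExpr (minimum count 10, minimum total 15), in 1 model of all 12 libraries with 1 coefficient per group (residual df 7, prior df 7.96). WT and HET had equal weight as controls of HOM. P-values are two-sided and Benjamini-Hochberg adjusted over all genes tested, and called under 0.05. The SE is the log2 change divided by the square root of F. Ratios within a library used counts plus 0.5 and an exact permutation test over libraries. Floors, at 3 counts, cover counting error only, since no molecular identifiers were reported. The model was also run on simulated counts drawn from its own fitted spread. These held no difference in sex or tissue mix, so they cannot show how either affects the calls.

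The claudins, the gene lists and the tests were chosen with earlier results of these data known. Named are all 9 claudins, the nearest patterns (5 for Cldn10, 3 for each other claudin called in a main comparison), the 4 smallest in p of the partner and of the transcription factor list in each main comparison, and other claudins that passed the filter. A gene that this rule names is not reported here. Alternatives were other scalings and filters, models of the compared groups alone, a replicate block, sex as a covariate, each library left out, and DESeq2 1.42.0. After the data were seen, removal of DMSO 3 with WT 1, which had the highest levels of stratified-epithelium genes, and a block with crossed WT numbers were added.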

Additional observations from a re-analysis of the deposited data

Results flagged for a closer look

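Cldn5, the endothelial claudin, was singled out because its change with the inhibitor differed from its change in HOM by the test of that difference (adjusted p = 0.0467, edgeR quasi-likelihood F test over all genes). It had 0 counts in the 3 FGFRi libraries and 11 over the 3 DMSO libraries, and stood at 0.880 and 1.70 CPM in HOM, 0.681 and 1.69 CPM in HET, and 0.366 and 0.648 CPM in WT. The difference rests on counts near the floor of 3, so the fitted size is not given. Among the 9 claudins, none had a control library of the cross far outside the other 3 by Dixon's test, which chance alone passes in about 1 of 20 groups.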

How the results depend on the processing

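With the inhibitor, 4 to 6 claudins were called in each alternative, all lower except under the pan-epithelial scaling (3 higher, 3 lower). Of all genes 3245 were called (1543 higher, 1702 lower), against 1303 with library totals (1018 higher, 285 lower), 8143 with pan-epithelial scaling, 2153 with sex as a covariate and 1896 to 3099 with 1 library left out. In HOM against WT and HET, 4 claudins were called, against 0 with library totals, 0 with the sex covariate and 1 to 5 with 1 library left out. Of all genes 933 were called (546 higher, 387 lower), with library totals 536 higher and 96 lower, and 6653 with pan-epithelial scaling, 1449 with no filter, 1406 in the compared groups only, 46 with the sex covariate, 568 without DMSO 3 and WT 1, and 140 to 658 with 1 library left out. Library totals moved the median of all genes to 0.15 there. In HOM against HET, 1 claudin and 237 genes were called, against 0 and 139 with library totals, 0 and 45 with the sex covariate, 5 and 667 with no filter, 5 and 444 in the compared groups only, 3 claudins by DESeq2, 1 claudin higher, 0 lower and 1543 genes (1460 higher, 83 lower) with pan-epithelial scaling, and 0 to 1 claudin and 33 to 93 genes with 1 library left out. In HOM against WT, 5 claudins and 1199 genes were called, against 1 claudin with library totals, 2 (1 higher, 1 lower) and 7245 (7159 higher, 86 lower) with pan-epithelial scaling, 0 and 116 with the sex covariate, 3 and 388 without DMSO 3 and WT 1, 2036 genes in the compared groups only, and 3 to 4 claudins and 299 to 858 genes with 1 library left out. In HET against WT, 0 claudins and 194 genes were called, against 1 and 655 with no filter, 340 genes with pan-epithelial scaling, 40 without DMSO 3 and WT 1, and 25 to 195 with 1 library left out. In DMSO against WT, 1 claudin and 358 genes were called, against 2 and 797 with no filter, 0 claudins with pan-epithelial scaling, 0 with the sex covariate, 0 and 99 without DMSO 3 and WT 1, and 0 to 1 and 110 to 370 with 1 library left out. For the difference of the changes, 0 claudins and 439 genes were called, against 2 and 1003 with no filter, 169 genes with library totals, 230 with pan-epithelial scaling, 257 without DMSO 3 and WT 1, and 0 to 1 and 77 to 560 with 1 library left out. The cause of these moves was not tested.

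The following values changed sign, the ranges being those with 1 library left out. Under the pan-epithelial scaling, Cldn4, Cldn8 and Cldn12 with the inhibitor were 0.24, 0.31 and 0.30 (log2), all called. Cldn12 in HOM against WT and HET was 0.14 with library totals, 0.34 with pan-epithelial scaling (called), 0.013 with no filter and -0.13 to 0.11. Cldn12 in HOM against WT was 0.097 with library totals and 0.32 with pan-epithelial scaling, and in HOM against HET it was -0.013 to 0.22. Cldn6 in HOM against WT was -0.025 with the sex covariate, -0.0062 without DMSO 3 and WT 1, and -0.0064 to 0.10. The difference of the changes was 0.013 with pan-epithelial scaling, 0.010 without DMSO 3 and WT 1 and -0.20 to 0.063 for Cldn1. It was -0.29 to 0.015 for Cldn3, -0.23 to 0.0062 for Cldn12, and 0.0029 with pan-epithelial scaling and -0.31 to 0.093 for Cldn23. In HOM, the difference in the log2 ratio of Cldn10 to Cldn3 was -0.18 to 0.091, to Cldn4 -0.14 to 0.041, to Cldn7 -0.10 to 0.025, to Cldn8 -0.038 to 0.10 and to Cldn23 -0.071 to 0.21. The number of ratios of Cldn10 that did not overlap was 7 to 8 with the inhibitor and 2 to 3 in HOM.

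Whether same-numbered libraries belong together is not given in the sources used here. Their deviations from the group means correlated by -0.03, -0.08 and -0.02 in the FGFRi and DMSO pairs, against -0.11 to 0.14 for pairs with unlike numbers. The values were -0.32 between HOM 1 and WT 1, -0.24 between HET 1 and WT 1 and 0.08 between HOM 1 and HET 1. In a group of 2 the deviations mirror each other, so these values cannot decide it. With the replicate number as a block, 5 claudins and 2517 genes were called with the inhibitor, without Cldn23 (adjusted p = 0.0658). In that block 4 claudins and 644 genes were called in HOM against WT and HET, 4 and 838 in HOM against WT, without Cldn3 (adjusted p = 0.0606), 153 genes in HOM against HET, 127 in HET against WT, 0 claudins and 101 genes in DMSO against WT, and 208 genes for the difference of the changes. With crossed WT numbers, 4 claudins and 868 genes were called in HOM against WT and HET. Cldn23, with 23 to 135 counts a library, has the least depth.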
